A study of Mus musculus with 4 samples.

Results

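The spots described here are those of the mouse ovary that were richest in Hsd17b7, Cited1, Kcnj16 and Bace2, genes taken as marks of the functional corpus luteum. A spot had to hold at least 1000 unique molecules (UMIs), and its score was the summed UMIs of these 4 genes per 10000 UMIs of the spot. The 10% of spots with the highest scores, pooled over all sections, were the members, which were thus chosen by measured values: 413 of 4134 spots, which left 3721 other spots. The lowest member scores were 13.19, 13.21 and 13.23 and the highest scores outside were 13.18, 13.16 and 13.08, so that the limit cut through a continuous range. Scores reached 90.9, with a median of 23.6 in members and 1.15 in other spots, and 53 spots lay within 10% of the limit, 30 of them members and 23 other spots.

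Sections came from ovaries of outbred CD-1 females without any manipulation named in the labels, aged (15 to 16 months) or young (3 to 4 months), with 4 animals per age and 1 section from each. Each of the 4 capture areas of a Visium slide, an array of barcoded spots that catch the RNA released by a frozen section, carried 1 aged and 1 young section, and sections are numbered here by their area. A spot covers several cells, so that in any value below fewer cells of a type and less RNA per cell cannot be told apart. The question put to these spots was what else they transcribed, how they differed from the rest of the ovary and from spots high in Akr1c18, and whether they differed between the ages.

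Spots were assigned to an age by the side of the capture area that the labels name. If an image had been turned relative to that description, aged and young would change places in its area, and nothing in the files would show it. Area 3 ran against the others in a gene of the oocyte's coat, Zp3: outside the members it had 62.3 CPM (counts scaled to 1000000 UMIs) in aged 3 and 7.50 CPM in young 3, while areas 1, 2 and 4 had 4.79, 5.48 and 4.78 CPM in aged and 95.5, 29.2 and 51.1 CPM in young sections. Outside the members, summed oocyte markers of area 3 ran as Zp3 did, at 601 CPM in aged 3 and 44.9 CPM in young 3. Summed granulosa markers there did not run against the other areas, at 6491 CPM in aged 3 and 2502 CPM in young 3. They had 7501 and 9193 CPM in aged 1 and 4 and 3389 and 2354 CPM in young 1 and 2. Whether the ages of area 3 are exchanged was not tested, and results by age are also given without it. Sections held 249 to 634 spots with at least 1000 UMIs in the aged group and 530 to 761 in the young group. Over all spots, those under 1000 UMIs included, they held 2777948 to 9506517 UMIs in the aged and 9702600 to 21619232 UMIs in the young group.

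The corpus luteum forms from the follicle after ovulation. It makes progesterone from cholesterol, under luteinising hormone and, in rodents, prolactin. Its cells take up cholesterol from lipoproteins and can also make it through the mevalonate pathway, whose genes are switched on by the factor SREBP2 when sterol in the cell is low. Regression of the rodent corpus luteum brings a rise of Akr1c18, the 20-alpha-hydroxysteroid dehydrogenase that inactivates progesterone. Hsd17b7 encodes an enzyme that reduces oestrone to oestradiol and also carries out a ketone reduction in cholesterol synthesis. Cited1 encodes a transcriptional co-regulator, Kcnj16 a subunit of inwardly rectifying potassium channels and Bace2 an aspartyl protease related to beta-secretase.

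Since the 4 genes chose the members, their levels are a description and were not tested. Hsd17b7 (chr1:169949535-169969241, minus strand, mm10) had 1151, 1673 and 3445 CPM in the members of aged 1, aged 3 and aged 4, and 2340, 1427 and 1289 CPM in those of young 1, young 2 and young 3. Every section's members thus lay above 1000 CPM, against a mean of 158 ± 91.8 CPM in the other spots of these sections (SD, n = 6). Cited1 (chrX:102247381-102252181, minus strand) varied more, at 244, 101 and 422 CPM in the aged and 350, 42.0 and 1019 CPM in the young sections. Kcnj16 (chr11:110968033-111027968, plus strand) had 128 to 353 CPM and Bace2 (chr16:97356742-97442936, plus strand) 120 to 776 CPM over the 6 sections.

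Hsd17b7 gave 65.2% of the UMIs behind the scores of members, Bace2 15.0%, Cited1 12.9% and Kcnj16 6.93%. Its part ran from 41.1% in young 3, where Cited1 gave 32.5%, to 83.0% in young 2. All 413 members had an Hsd17b7 UMI, 391 had Bace2, 337 Kcnj16 and 327 Cited1. In aged 1 Hsd17b7 gave 49.1% and Bace2 33.1%. In these 2 sections Hsd17b7 thus gave under 50% of the score, shared with a different gene in each.

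Members lay in 3 aged and 3 young sections. Aged 1 had 62 of 299 spots (20.7%), aged 3 had 51 of 249 (20.5%), aged 4 had 163 of 396 (41.2%), and aged 2 had 0 of 634. Young 1 had 24 of 530 (4.53%), young 2 had 37 of 730 (5.07%), young 3 had 76 of 535 (14.2%), and young 4 had 0 of 761. The highest score was 7.25 in aged 2 and 10.1 in young 4, so that neither section came near the limit. The mean share was 20.6 ± 16.8% in aged and 5.95 ± 5.95% in young sections (SD, n = 4 each), and the ranges overlapped. The difference of 14.6 percentage points did not pass an exact two-sided permutation test over sections (p = 0.143, the smallest possible being 0.0286). Without area 3 it was 17.4 points (p = 0.4, exact permutation test, the smallest possible being 0.1).

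**Figure D1:**
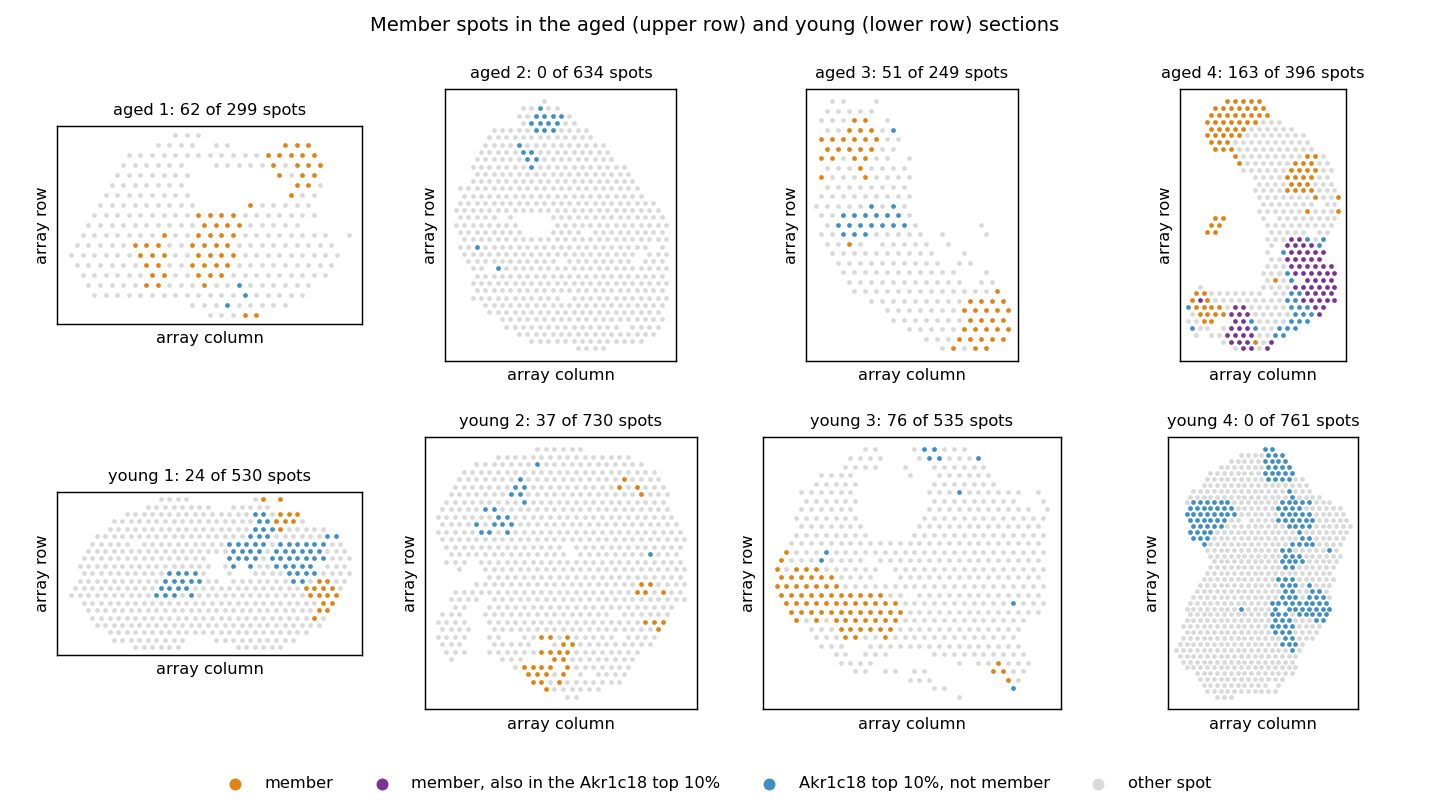
Each panel is 1 section, drawn at its own scale by array column and row, with the aged sections above and the young below. Members (orange, or purple where they were also in the top 10% by Akr1c18) form patches in 6 sections and are missing from aged 2 and young 4, and all 72 purple spots are in aged 4.

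The map of the sections shows that members lay together. Of the array neighbours of members, 71.5%, 75.7% and 80.8% were members too in aged 1, aged 3 and aged 4, where 20.7%, 20.5% and 41.2% of all spots were. In young 1, young 2 and young 3, 63.9%, 50.8% and 82.0% of the neighbours were members, against 4.53%, 5.07% and 14.2% of all spots. The members formed 32 patches, of which 13 had at least 7 spots and held 375 members. Only 10 members had no member beside them, and 114 were surrounded by members on all 6 sides.

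Members were richer in RNA than their surroundings. The median UMIs per spot averaged 25764 ± 10302 in members and 15326 ± 6897 in other spots (SD, n = 6 sections), higher in 6 of 6 sections. Genes detected per spot averaged 6159 ± 870 in members and 4894 ± 935 in other spots, again higher in 6 of 6. Both passed the exact sign-flip permutation test (adjusted p = 0.0469 over 3 measures, raw p = 0.03125, the smallest possible). The mitochondrial share of UMIs averaged 1.42 ± 0.839% in members and 1.53 ± 1.39% in other spots, was higher in members in 5 of 6 sections, and did not pass (exact p = 1). The part of depth in the results below was not tested beyond scaling to library size.

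Corpus luteum markers that the rule did not use were compared next, from a list chosen with earlier results of these data known. Of 11 corpus luteum markers tested, 7 were higher in members and 0 lower than in other spots of the same sections, where 12.2% of all genes were called higher. Against spots high in Akr1c18, compared below, Lhcgr alone of the list's tested genes was called. The count of 7 therefore cannot tell a functional from a regressing corpus luteum, and the label functional was not tested by it. Lhcgr, the receptor for luteinising hormone (chr17:88716481-88791990, minus strand), had 975, 1265 and 828 CPM in the members of aged 1, 3 and 4 and 1257, 1317 and 1680 CPM in those of young 1, 2 and 3. In the other spots it had 614, 207 and 265 CPM in the aged and 154, 222 and 150 CPM in the young sections, so that the sets did not overlap. The fitted log2 fold change was 2.46 ± 0.31 (SE, adjusted p = 0.000238). Adjusted p-values across genes here and below are from edgeR's quasi-likelihood test with Benjamini-Hochberg adjustment over all genes tested, with a threshold of 0.05.

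The patches of aged 4 went against the label in part. Its patch 1 (50 spots) had 30348 CPM of Akr1c18, 146 CPM of Lhcgr and 3490 CPM of Hsd3b1, which encodes the enzyme that makes progesterone. Its patch 3 (35 spots) had 15521 CPM of Akr1c18, 339 CPM of Lhcgr and 6501 CPM of Hsd3b1. The other 11 patches had 656 to 3171 CPM of Akr1c18, 485 to 1787 CPM of Lhcgr and at least 9196 CPM of Hsd3b1, ranges that neither of the 2 patches reached in any of the 3 genes. In patch 1 all 50 spots, and in patch 3 20 of 35, were also among the 413 spots in the top 10% by Akr1c18. These 2 patches were carried into the members by Hsd17b7, at 1866 and 2389 CPM, with 25.5 and 70.5 CPM of Cited1. The 72 members in the top 10% by Akr1c18 were all in aged 4, and results that turn on them are given with and without them.

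**Figure D2:**
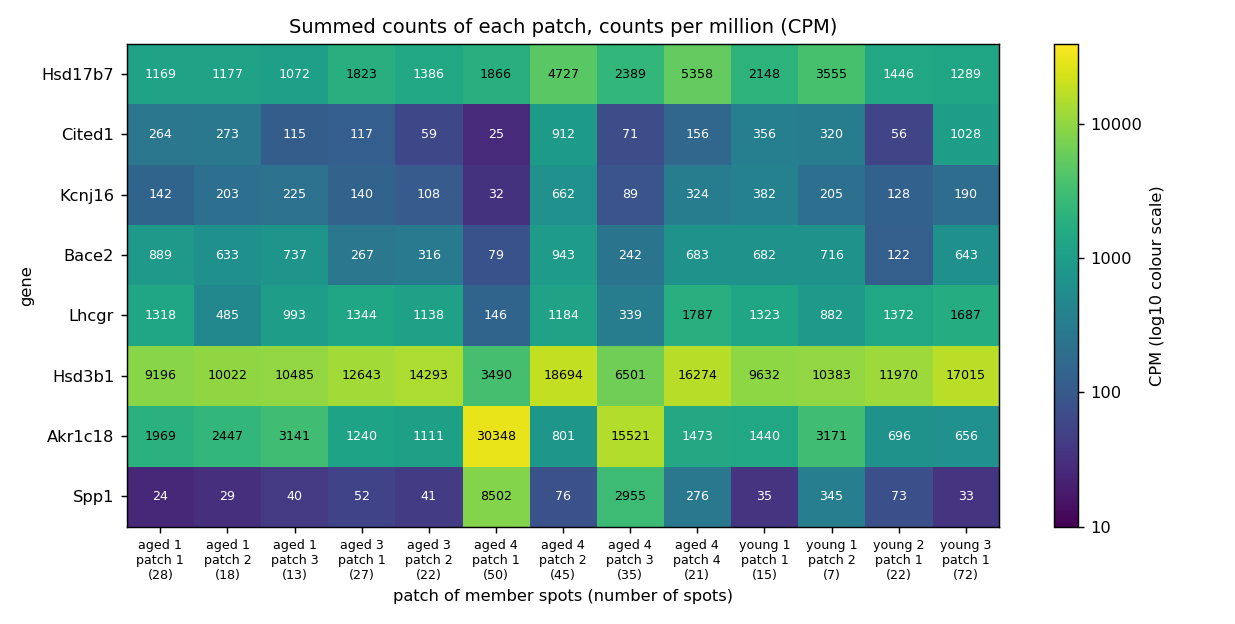
Level of 8 genes (rows) in each of the 13 patches (columns, number of spots in brackets), as CPM of the summed counts of the patch, with colour on a log10 scale. Patches 1 and 3 of aged 4 combine high Hsd17b7 with 30348 and 15521 CPM of Akr1c18 and with the lowest Lhcgr and Hsd3b1 of the 13.

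Within aged 4 both kinds of patch could be set side by side, though each kind is 1 pool of spots from 1 animal, with no replicate and no test. Patches 1 and 3 together (85 spots, 2191065 UMIs) had 7426 CPM of Spp1, which encodes osteopontin (95% exact Poisson interval 7312 to 7541 CPM), and patches 2 and 4 (66 spots, 2407780 UMIs) had 116 CPM (103 to 131 CPM). Such intervals cover counting error only. Timp1, an inhibitor of metalloproteinases, had 26130 CPM in patches 1 and 3 and 1132 CPM in patches 2 and 4, and the stress-induced gene Nupr1 had 14271 and 421 CPM in the same order. Hsd3b1 had 4075 CPM (3991 to 4160 CPM) in patches 1 and 3 and 18209 CPM (18039 to 18381 CPM) in patches 2 and 4, and the lipoprotein receptor gene Scarb1 had 729 and 2703 CPM. Genes of steroid supply did not all differ in this way, since Cyp11a1 had 13738 and 13769 CPM and Star 2907 and 2926 CPM in the same order, with intervals that overlapped. Hsd17b7 itself had 1968 CPM in patches 1 and 3 and 4853 CPM in patches 2 and 4. The cholesterol synthesis genes did not all run with it: Fdps had 2682 and 2582 CPM and Cyp51 1277 and 750 CPM in that order.

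Young 3 held the largest patch of any section, 72 spots, with 1028 CPM of Cited1, 9176 CPM of Star and 1687 CPM of Lhcgr. Its 9176 CPM of Star, the carrier of cholesterol into mitochondria, stood above the 1206 to 3318 CPM of the other 12 patches. Patches of a section share their animal and are not replicates of a condition.

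Cholesterol synthesis genes were higher in members throughout the pathway. Of 19 listed genes all 19 were measured and tested, and 19 were higher and 0 lower in members, at a median log2 fold change of 1.92, while 24.0% of the 11789 genes tested were called (12.2% higher and 11.9% lower) around a median of -0.00. Hsd17b7, itself a gene of this pathway, is not in that count, but it gave 65.2% of the UMIs behind the scores of members. How far that choice sets the result was not tested beyond a score without Hsd17b7. The members by that score shared 295 spots with the 413 used here. The 19 calls held in each alternative run, with medians of 1.67 to 2.10.

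The summed level of the 19 genes was 10064, 3602 and 12809 CPM in the members of aged 1, aged 3 and aged 4 and 6052, 5783 and 15285 CPM in those of young 1, young 2 and young 3. In the other spots it was 2419, 1408 and 2862 CPM in the aged and 1548, 2393 and 3673 CPM in the young sections. Every section was higher in its members, although those of aged 3 lay below the other spots of young 3. Hmgcs1, which makes the substrate of the pathway's rate-limiting reductase (chr13:119690379-119708260, plus strand), had 1754, 677 and 2308 CPM in aged members and 1078, 1266 and 2539 CPM in young members. Its other spots had 353, 157 and 333 CPM in aged and 180, 391 and 310 CPM in young sections, for a log2 fold change of 2.54 ± 0.22 (adjusted p = 1.91e-05). Lss, lanosterol synthase (chr10:76531588-76557138, plus strand), had 113 to 556 CPM in members and 25.8 to 85.4 CPM in other spots, with no overlap and a log2 fold change of 2.51 ± 0.17 (adjusted p = 5.68e-06).

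Other genes of the pathway had smaller changes. Fdps, which makes farnesyl diphosphate, was higher by 1.73 ± 0.21 on the log2 scale (adjusted p = 0.000197), the demethylation enzyme gene Msmo1 by 1.62 ± 0.18 (adjusted p = 9.08e-05) and Dhcr7, which acts at a last step, by 1.70 ± 0.27 (adjusted p = 0.000991).

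**Figure D3:**
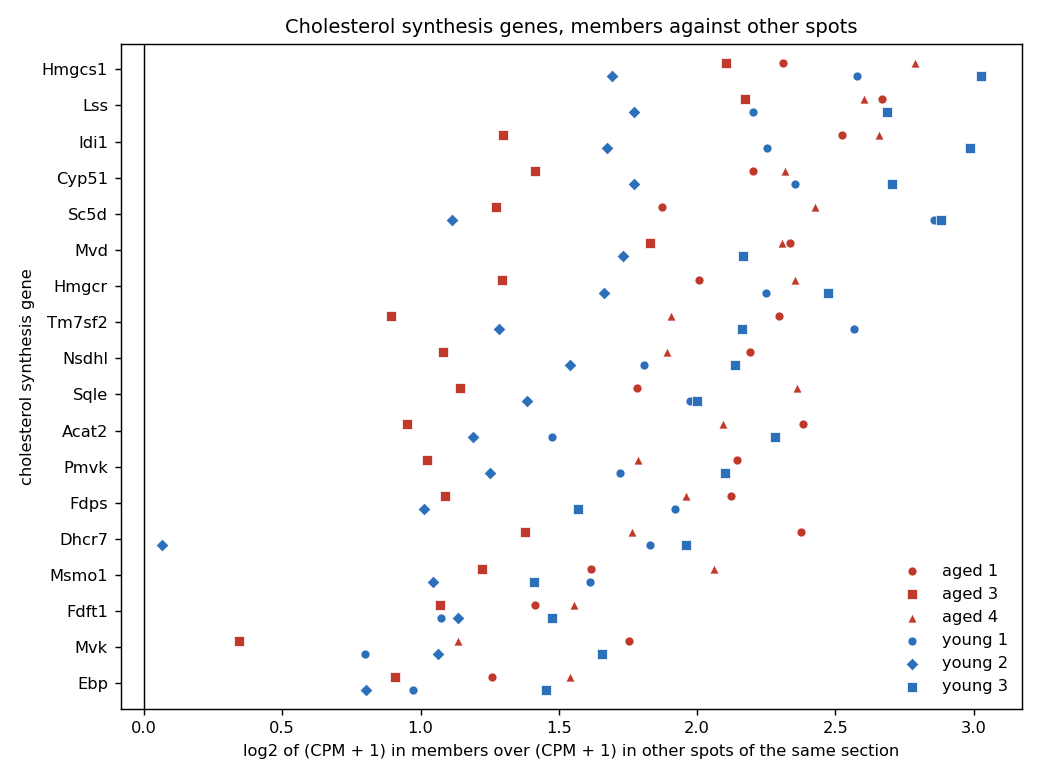
Each row is 1 of 18 of the 19 cholesterol synthesis genes and each point 1 section (red aged, blue young), placed at the log2 ratio of CPM + 1 in members over CPM + 1 in other spots of that section. Points to the right of the line at 0 are higher in members, and genes are ordered by fitted log2 fold change, with Hmgcs1 (2.54) at the top.

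The promoters of Hsd17b7 and of the 2 genes of the list with the largest changes, Hmgcs1 and Lss, are shown because these genes were high in the same spots. The bases run 5′ to 3′ on the gene's own strand, from RefSeq on GRCm38.p6, and end before the gene as GENCODE annotates it, with bases inside the gene left out. Capitals mark CCAAT or its complement ATTGG, the element bound by the factor NF-Y.
Hsd17b7, chr1:169969242-169969455, minus strand: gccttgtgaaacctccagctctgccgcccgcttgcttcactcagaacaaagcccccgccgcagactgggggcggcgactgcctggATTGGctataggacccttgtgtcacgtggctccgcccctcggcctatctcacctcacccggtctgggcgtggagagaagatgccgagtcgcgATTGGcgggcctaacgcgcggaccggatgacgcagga
Hmgcs1, chr13:119690101-119690350, plus strand: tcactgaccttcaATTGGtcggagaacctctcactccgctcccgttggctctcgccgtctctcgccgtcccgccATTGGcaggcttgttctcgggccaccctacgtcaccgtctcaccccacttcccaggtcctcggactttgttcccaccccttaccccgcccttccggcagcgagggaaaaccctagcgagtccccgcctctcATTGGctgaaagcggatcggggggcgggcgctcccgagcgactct
Lss, chr10:76531355-76531587, plus strand: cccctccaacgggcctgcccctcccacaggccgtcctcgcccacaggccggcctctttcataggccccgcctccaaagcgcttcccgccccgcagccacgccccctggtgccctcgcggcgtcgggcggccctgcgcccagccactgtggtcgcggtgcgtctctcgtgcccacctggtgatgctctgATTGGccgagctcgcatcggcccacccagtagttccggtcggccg
The 3 stretches hold 2, 3 and 1 matches. Within 250 bases before the start, CCAAT on either strand was found for 13 of the 14 listed cholesterol genes that have a sequence (92.9%), against 10133 of 27025 genes (37.5%) and 40.5% of tested genes. The letters TCACNCCAC, a form of the sterol regulatory element bound by SREBP factors, searched on both strands and counted apart from CCAAT, were found for 1 of these 14 genes (7.14%) and for 331 of 27025 (1.22%). A match is a description of the letters in this window.

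Genes that take up and move cholesterol were mixed, with 7 of 14 higher and 3 lower. Npc2, which passes cholesterol out of lysosomes, was higher by 1.59 ± 0.14 on the log2 scale (adjusted p = 2.79e-05). Scarb1, the receptor for high-density lipoprotein, had 1653, 1682 and 1812 CPM in aged members and 2171, 1032 and 3564 CPM in young members. Its other spots had 682, 782 and 760 CPM in aged and 848, 1137 and 1732 CPM in young sections. It was higher in 5 of 6 sections, young 2 being the exception (log2 1.10 ± 0.21, adjusted p = 0.00332). Soat1, which esterifies cholesterol for storage, was higher by 0.92 ± 0.29 (adjusted p = 0.0346), a call lost without aged 4 (0.124), young 1 (0.1), young 2 (0.0607) or young 3 (0.11). The 3 lower genes, named after their values were seen, were Vldlr, Abca1 and Plin2, which encode a lipoprotein receptor, a cholesterol exporter and a lipid droplet coat protein. Their log2 fold changes were -0.85 ± 0.16, -0.46 ± 0.14 and -0.91 ± 0.14. The Abca1 call was lost without aged 1 (adjusted p = 0.107), young 1 (0.0545) or young 3 (0.0557).

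Of 8 tested regulators of sterol synthesis, 3 were higher and 0 lower. They were Srebf2, which encodes SREBP2 (log2 0.87 ± 0.11, adjusted p = 0.000279), its escort Scap (0.85 ± 0.14, adjusted p = 0.00147) and Insig1, which holds it back and is also its target (1.59 ± 0.19, adjusted p = 0.00015). Nr1h2, the sterol-sensing receptor LXR-beta, had a log2 fold change of -0.18 that did not pass (adjusted p = 0.364).

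Genes of progesterone synthesis did not move as a block: 4 of 10 were higher and 3 lower. Cyp11a1, which cuts the cholesterol side chain, had 11184, 7478 and 13744 CPM in aged members and 12837, 10698 and 16240 CPM in young members. Other spots had 6379, 3596 and 5537 CPM in aged and 5598, 7647 and 6905 CPM in young sections, so that each section's members lay above its other spots, and members of aged 3 below the other spots of young 2 (log2 1.13 ± 0.21, adjusted p = 0.00263). Hsd3b1 had 9648 to 16953 CPM in members and 5487 to 12048 CPM in other spots, ranges that overlapped (log2 0.75 ± 0.19, adjusted p = 0.0139). That call was lost without aged 4 (0.0562) or young 1 (0.07).

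Fdx1 and Fdxr pass electrons to Cyp11a1. They were called higher (log2 0.62 ± 0.20 and 0.52 ± 0.17, adjusted p = 0.0398 and 0.0465), yet Fdx1 lost its call without aged 1, aged 4, young 1 or young 3 (0.107 to 0.132) and Fdxr without any 1 of the 6 sections (0.0594 to 0.143). Without aged 4, without young 1 or without the section as a block, 1 gene of this list was called higher. Lower were Tspo, a mitochondrial outer membrane protein (-0.59 ± 0.14, adjusted p = 0.00943), Por, the electron donor of microsomal P450 enzymes (-0.52 ± 0.13, adjusted p = 0.0129), and Nr5a1, the steroidogenic factor SF-1 (-0.95 ± 0.17, adjusted p = 0.00186).

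Star had 2835, 2025 and 2886 CPM in aged members and 2415, 1205 and 9090 CPM in young members, against 891, 1723 and 1338 CPM in aged and 2880, 3691 and 4297 CPM in young other spots. Members of young 1 and young 2 were thus lower and the rest higher than their surroundings, and the log2 fold change of 0.51 ± 0.38 did not pass (adjusted p = 0.365). Nr5a2, the related receptor LRH-1 (0.34, adjusted p = 0.443), and Stard3, which moves cholesterol between membranes (0.02, adjusted p = 0.931), did not pass either. The luteal marker Sfrp4, a secreted Wnt antagonist, missed the threshold (0.85 ± 0.30, adjusted p = 0.0568) and passed it without young 3 (1.14, adjusted p = 0.00216).

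Receptors for the hormones that keep a corpus luteum were higher. Besides Lhcgr, the prolactin receptor gene Prlr had 559, 868 and 690 CPM in aged and 548, 488 and 852 CPM in young members, against 227, 290 and 207 CPM in aged and 167, 198 and 423 CPM in young other spots, with no overlap (log2 1.55 ± 0.15, adjusted p = 3.43e-05). Stat5b, which carries the prolactin signal, was higher by 0.96 ± 0.14 (adjusted p = 0.000612), and Cish, a target of STAT5, by 1.61 ± 0.15 (adjusted p = 3.93e-05). The oestrogen receptor genes were lower: Esr2, the form of granulosa cells, at -2.01 ± 0.25 (adjusted p = 0.000197) and Esr1 at -1.05 ± 0.29 (adjusted p = 0.0218). The Esr1 call was lost without aged 1 (0.0681), aged 4 (0.0538) or young 2 (0.062). Of 11 tested genes of this group 4 were higher and 2 lower.

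Of 9 genes linked to luteolysis, 1 was higher and 1 lower, near the 12.2% and 11.9% of all genes called higher and lower. Ptgfr, the receptor for prostaglandin F2-alpha, had 992 to 1558 CPM in members and 374 to 811 CPM in other spots, with no overlap (log2 1.18 ± 0.21, adjusted p = 0.00221). Ednra, an endothelin receptor gene, was lower, at log2 -0.59 ± 0.18 (adjusted p = 0.0357), a call lost without aged 1, aged 4, young 1 or young 3 (0.0807 to 0.128). Akr1c18 had 2311, 1243 and 13152 CPM in aged and 1734, 908 and 679 CPM in young members, against 1914, 4150 and 5573 CPM in aged and 4838, 3385 and 5878 CPM in young other spots. Members of aged 1 and aged 4 lay above their surroundings and those of the other 4 sections below them, and the log2 fold change of -1.07 ± 0.51 did not pass (adjusted p = 0.149). It passed without aged 4 (-1.55, adjusted p = 0.0251).

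Most tested relatives of the rule genes were not called higher, where 12.2% of all genes were called higher and 11.9% lower. Lists this short were not tested against those shares. In the 17-beta-hydroxysteroid dehydrogenase family 1 of 6 tested genes was higher, Hsd17b12, an enzyme of long-chain fatty acid synthesis (log2 1.39 ± 0.15, adjusted p = 9.29e-05). The 2 lower ones were Hsd17b1, which makes oestradiol in granulosa cells (-2.31 ± 0.33, adjusted p = 0.000559), and Hsd17b2, which oxidises it (-1.72 ± 0.40, adjusted p = 0.0093). Of 4 tested relatives of the other rule genes 1 was higher, Bace1, which encodes beta-secretase (0.91 ± 0.16, adjusted p = 0.00211). Cited2 (0.08, adjusted p = 0.77) and Cited4 (0.28, adjusted p = 0.334) did not pass.

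Outside the lists, the largest differences with the same direction in each section were led by Bhmt, betaine-homocysteine methyltransferase. It had 87.2, 64.2 and 87.3 CPM in aged members and 168, 34.0 and 111 CPM in young members, against 8.44, 16.2 and 3.50 CPM in aged and 5.10, 2.65 and 6.96 CPM in young other spots (log2 3.94 ± 0.33, adjusted p = 1.91e-05). Ssu2 had 226 to 1035 CPM in members and 24.4 to 137 CPM in other spots (3.57 ± 0.32, adjusted p = 2.65e-05). The cystatin gene Cst8 had 320 to 1512 CPM in members and 60.9 to 186 CPM in other spots (3.13 ± 0.24, adjusted p = 8.97e-06). None of these 3 overlapped between the sets. The other genes named by size were the tight junction gene Cldn18 (3.66), AI661453 (3.22), the histidine breakdown gene Amdhd1 (3.15), the vesicle transport gene Rab27a (3.15), the esterase gene Ces2a (3.06), the kinase gene Aatk (3.05), Saa2 (3.01), the transporter gene Slc12a8 (2.97) and Lrrn1 (2.91). Saa2 and Ces2a have close relatives in the genome that can share reads, which makes their own values uncertain.

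The genes lowest in members were led by Nppc. This gene, for the peptide with which granulosa cells hold the oocyte in meiosis, had 5.29, 2.98 and 2.73 CPM in aged and 3.64, 0.617 and 4.22 CPM in young members, against 177, 12.4 and 105 CPM in aged and 5.93, 5.75 and 16.6 CPM in young other spots. Each section's members were lower than its other spots, and the lowest other spots lay just above the highest members (log2 -3.88 ± 0.47, adjusted p = 0.000173). Cyp19a1, the aromatase gene, was lower, at log2 -2.62 ± 0.34, the activin subunit genes Inhba at -2.57 ± 0.36 and Inhbb at -2.34, and the hedgehog ligand gene Ihh at -2.60. Bex4 (-2.58), the amino acid transporter gene Slc38a5 (-2.57) and the carbonic anhydrase gene Car14 (-2.56) complete the set.

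Marker lists of other cell types were mostly lower in members, which were compared with sections full of those types. Of 11 granulosa markers 9 were lower and 1 higher, and their summed level ran from 1472 to 3084 CPM in members and from 2354 to 9193 CPM in other spots. The higher one was Foxl2, a transcription factor (0.47 ± 0.14, adjusted p = 0.035), a call lost without aged 1, aged 3, young 2 or young 3 (0.0613 to 0.147). Inha was lower, at log2 -1.69 ± 0.38 (adjusted p = 0.00718), and the gap junction gene Gja1 did not pass (0.38, adjusted p = 0.268). Theca markers had 4 of 6 lower: Cyp17a1, which makes androgens (-1.69 ± 0.33, adjusted p = 0.00363), Aldh1a1 (-0.84 ± 0.14), Gli1 (-2.27 ± 0.27) and Nr2f2 (-0.81 ± 0.13).

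Of 7 tested oocyte markers 6 were lower, of 9 stromal fibroblast markers 8, of 8 surface epithelium markers 7 and of 11 macrophage markers 7, with 0 higher in these lists. Dcn, decorin of the stroma, was lower, at log2 -1.53 ± 0.16 (adjusted p = 5.42e-05) and Lyz2, lysozyme of macrophages, at -0.99 ± 0.17 (adjusted p = 0.00156). The summed macrophage markers ran from 286 to 759 CPM in members and from 278 to 1235 CPM in other spots. The macrophage calls fell to 0 without the section as a block and to 2 where the score left out Hsd17b7. Of 11 lipid-laden macrophage markers 3 were lower, Gpnmb (-1.76 ± 0.29), Trem2 (-1.37 ± 0.18) and Lgals3 (-1.09 ± 0.27), and without the section as a block the calls of Gpnmb (0.124) and Lgals3 (0.293) were lost. Oviduct epithelium markers had 2 of 3 lower, Ovgp1 (-2.23 ± 0.35) and Epcam (-1.73 ± 0.32), adipocyte markers 1 of 2, Plin1 (-1.51 ± 0.45), and plasma cell markers 0 of 3 by edgeR and by DESeq2, with 0 under an unadjusted p of 0.05. The Plin1 call was lost without aged 1, aged 4, young 2 or young 3 (0.0569 to 0.109) and without the Akr1c18-high members (0.0531).

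Blood vessel genes were split. Of 14 endothelial markers 5 were higher, Pecam1 (0.56 ± 0.14), Cdh5 (0.44 ± 0.12), Kdr (0.69 ± 0.14), Flt1 (0.71 ± 0.20) and Tek (0.62 ± 0.20), and 1 was lower, Vwf of larger vessels (-1.25 ± 0.33, adjusted p = 0.0156). Kdr, the main receptor for VEGF, kept its call without each section in turn. The others lost theirs: Pecam1 without young 3 (0.054), Flt1 without aged 4 or young 3 (0.0874 and 0.0839), Cdh5 without aged 4, young 2, young 3 or the Akr1c18-high members (0.0565 to 0.105), and Tek without any section but aged 1 (0.0509 to 0.168). The summed endothelial markers were alike, at 654 to 1083 CPM in members and 476 to 1094 CPM in other spots.

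Over all genes tested, 12.2% were called higher and 11.9% lower. Of 10 angiogenic factors 2 were higher, Vegfa (0.98 ± 0.23, adjusted p = 0.0101) and Angpt1, which steadies vessels (1.21 ± 0.23, adjusted p = 0.00331). Its antagonist Angpt2 (-0.93 ± 0.21, adjusted p = 0.0087) and Nrp2 (-1.20 ± 0.20) were lower. Smooth muscle and pericyte markers had 7 of 11 lower, among them Acta2 (-0.95 ± 0.23, adjusted p = 0.0116), and 1 higher, Rgs5 of pericytes (0.63 ± 0.21), whose call was lost without aged 1, aged 3, young 1, young 2 or young 3 (0.0542 to 0.17) and without the Akr1c18-high members (0.0556).

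Members were low in genes of division against the other spots. Of 9 cell cycle genes 8 were lower, at a median log2 fold change of -1.20. Akr1c18-high spots were low too: the summed list averaged 184 ± 65.7 CPM there and 221 ± 106 CPM in members not among them (SD, n = 5 sections). The inhibitor genes Cdkn1b, p27 (1.06 ± 0.17, adjusted p = 0.00119), and Cdkn1a, p21 (0.85 ± 0.26), were higher of 4 tested. Cdkn1a lost its call without aged 3, aged 4 or young 2 (0.0829 to 0.151) and without the Akr1c18-high members (0.40, adjusted p = 0.322). Of 15 antioxidant genes 4 were higher, Gpx4 (0.83 ± 0.17, adjusted p = 0.00402), Sod2 (1.23 ± 0.27), Cat (0.94 ± 0.22) and Txnrd1 (0.94 ± 0.16), and 2 lower, Gstm1 (-1.12 ± 0.18) and Gclc (-0.46 ± 0.14), the Gclc call being lost without aged 1, young 1 or young 3. Prdx1 missed the threshold (0.58, adjusted p = 0.0869) and passed it without aged 3 (0.78, adjusted p = 0.00579).

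Of 15 nuclear genes of the respiratory chain 3 were higher, Ndufs1 (0.66 ± 0.13), Uqcrfs1 (0.75 ± 0.18) and Sdha (0.47 ± 0.14, lost without any section but aged 3), and of 12 encoded in mitochondria edgeR and DESeq2 called 0, with 0 and 1 of them under an unadjusted p of 0.05. Basement membrane genes had 2 of 10 higher, Col4a1 (0.58 ± 0.15, lost without young 3) and Col4a2 (0.51 ± 0.16, lost without any section but young 1 and without the Akr1c18-high members, at 0.45 with an adjusted p of 0.0746), and 2 lower, Col4a4 (-0.97 ± 0.17) and Col4a6 (-1.46 ± 0.28). Each count of calls by list is to be read beside the shares over all genes, 12.2% higher and 11.9% lower. Where 5 or fewer genes of a list were called, those outside the naming rule were named after their values were seen.

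Choices other than the sections left in also ended calls of named genes. Without the section as a block 31 of 94 were lost, and with the score without Hsd17b7 22 of 93. Of genes not already given with a loss, Cyp19a1 (adjusted p = 0.139), Cyp17a1 (0.0851), Lyz2 (0.0702), Cdkn1b (0.0668), Col4a4 (0.0988) and Ovgp1 (0.117) failed without the block. Tspo (0.15 and 0.146), Vwf (0.126 and 0.105), Acta2 (0.222 and 0.104) and Aldh1a1 (0.0592 and 0.0928) failed both without the block and with that score. Por (0.0598), Hsd17b2 (0.0772), Gstm1 (0.0591), Uqcrfs1 (0.0634) and Epcam (0.136) failed with that score alone. Of the same 94 calls, 10 were lost with limits set within each capture area, 6 without the filter on low counts, 2 with RLE scaling and 1 with DESeq2, and 6 of 91 were lost without the spots next to members. Each gene lost there is one given with a loss above. For some genes given with a loss on leaving out a section, adjusted p went higher over the 14 alternatives. It reached 0.701 for Cdh5, 0.694 for Cdkn1a, 0.426 for Gclc, 0.278 for Foxl2, 0.265 for Esr1 and 0.213 for Col4a2.

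Levels were next followed away from the members, in steps on the array within each section, as a description. Hsd17b7 averaged 1888 CPM in members, 402 CPM in spots 1 step away, 168 and 110 CPM at 2 and 3 steps and 85.9 CPM beyond, means of 6 sections. The summed cholesterol synthesis genes went with it, at 8933, 3693, 2632, 2218 and 1877 CPM in the same order, and Lhcgr less evenly, at 1220, 436, 259, 279 and 232 CPM. Hsd17b7 chose the members, so that its first step is set by the rule, and how far the rule also sets the first step of the other genes was not tested. In aged 1 Lhcgr was again at 778 CPM beyond 3 steps.

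Granulosa markers ran the other way, at 2197 CPM in members, 3462 CPM at 1 step, 5020 and 5850 CPM at 2 and 3 steps and 6454 CPM beyond. That course came from the aged sections, with 10902, 7438 and 12027 CPM beyond 3 steps in aged 1, aged 3 and aged 4 (17 spots in aged 4), while young 1, 2 and 3 had 3495, 2361 and 2503 CPM there and 3084, 1472 and 2213 CPM in members. Smooth muscle and pericyte markers averaged 894 CPM in members, 1653 CPM at 1 and at 2 steps, 1228 CPM at 3 and 1323 CPM beyond. They were highest at 1 step in aged 4 and young 1 (2097 and 2370 CPM), at 2 steps in aged 1, young 2 and young 3 (3093, 1579 and 1272 CPM) and beyond 3 steps in aged 3 (1077 CPM), so that the sections had no shared peak. Stromal fibroblast markers had 1035 CPM in members and 1803 to 1902 CPM at any distance, and endothelial markers stayed within 698 to 859 CPM throughout.

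The inside of the patches differed a little from the edge. Members with members on all sides averaged 2049 CPM of Hsd17b7 and those at an edge 1770 CPM, with 1411 and 1117 CPM of Lhcgr and 9602 and 8300 CPM of the summed cholesterol genes. Smooth muscle and pericyte markers summed to 680 CPM inside and 989 CPM at the edge. Vwf had 1.75 ± 3.25 and 7.76 ± 6.57 CPM (SD, n = 6), levels that rest on few UMIs, with 0 CPM inside in aged 1 and aged 3. Young 1 and young 2 had 2 and 1 spots inside, so that their part in these means is thin, and a spot at an edge can cover cells of both sides.

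**Figure D4:**
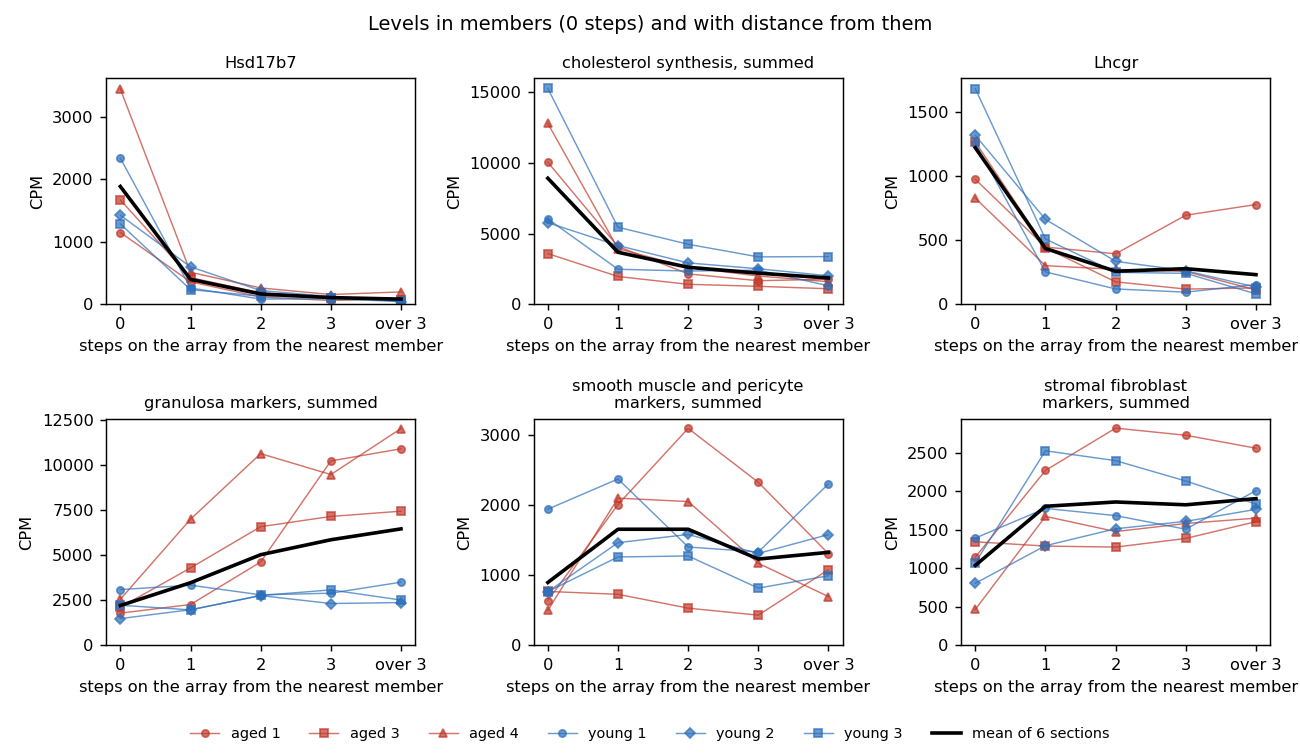
Level in CPM (vertical axes) against steps on the array from the nearest member of the same section (0 is the members), for 2 genes and 4 summed marker lists. Thin lines are sections (red aged, blue young) and the black line their mean: Hsd17b7 (1888 to 85.9 CPM, the first step being set by the rule) and cholesterol synthesis genes fall with distance, and the mean of granulosa markers (2197 to 6454 CPM) rises through the aged sections.

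Members were then compared with spots high in Akr1c18, the mark of a regressing corpus luteum. The 413 spots in the top 10% by Akr1c18 (at least 116 UMIs per 10000) shared 72 with the members. Leaving out these, 341 members and 341 Akr1c18-high spots remained, and 5 sections had at least 10 of both: aged 3 (51 members and 19 Akr1c18-high spots), aged 4 (91 and 28), young 1 (24 and 74), young 2 (37 and 19) and young 3 (76 and 10). The test thus covered 429 spots. It left out young 4, with 168 Akr1c18-high spots, and aged 2, with 20, which had no members. Aged 1, with 3 Akr1c18-high spots, was left out too. By the choice of the sets, Akr1c18 itself had 679 to 1734 CPM in members and 12517 to 26203 CPM in Akr1c18-high spots. Of 8086 genes tested 9.71% were called, 386 higher in members (4.77%) and 399 lower (4.93%). Each count of calls by list in this comparison is to be read beside these shares.

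Lhcgr was among the genes furthest apart. It had 1265 and 1347 CPM in the members of aged 3 and aged 4 and 1257, 1317 and 1680 CPM in those of young 1, 2 and 3, against 110 and 111 CPM in aged and 62.2, 42.2 and 85.5 CPM in young Akr1c18-high spots (log2 4.06 ± 0.27, adjusted p = 2.25e-06). The sets did not overlap. Dpysl4 had 657 and 535 CPM in aged and 158, 208 and 465 CPM in young members, against 58.0 and 44.6 CPM in aged and 14.5, 14.6 and 37.6 CPM in young Akr1c18-high spots (3.49 ± 0.20, adjusted p = 7.83e-07). Ssu2 was higher by 4.13 ± 0.29 (adjusted p = 2.38e-06), and beside it stood Aatk (4.12), Ces2a (4.03), Lrrn1 (3.72), the Ras activator gene Rasgrp1 (3.63), the phospholipase gene Pla2g5 (3.58), the lipoprotein receptor gene Lrp8 (3.51), AI661453 (3.43), Rab27a (3.37) and Saa2 (3.23, a call lost with the score without Hsd17b7, adjusted p = 0.0508). Akr1c18-high spots are part of the other spots of the first comparison, so that both comparisons share counts.

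The genes lowest in members were led by Maob, monoamine oxidase B. It had 5.97 and 3.37 CPM in aged and 10.9, 3.09 and 4.64 CPM in young members, against 81.2 and 29.1 CPM in aged and 145, 61.1 and 116 CPM in young Akr1c18-high spots (log2 -4.02 ± 0.27, adjusted p = 2.25e-06). Cdkn2b, the cell cycle inhibitor p15, had 59.7 and 21.0 CPM in aged and 45.5, 55.6 and 25.7 CPM in young members, against 359 and 264 CPM in aged and 436, 266 and 229 CPM in young Akr1c18-high spots (-3.07 ± 0.23, adjusted p = 2.95e-06). Neither gene overlapped between the sets. Spp1 had 49.2 and 148 CPM in aged and 89.2, 77.2 and 33.8 CPM in young members, against 209 and 3306 CPM in aged and 621, 748 and 780 CPM in young Akr1c18-high spots (-3.60 ± 0.33). Nupr1 (-3.29 ± 0.46), the phospholipid enzyme gene Lpcat2 (-3.29), the transcription factor gene Onecut2 (-3.27), Cd28 (-3.10) and the P450 gene Cyp4f14 (-3.08) complete the set.

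**Figure D5:**
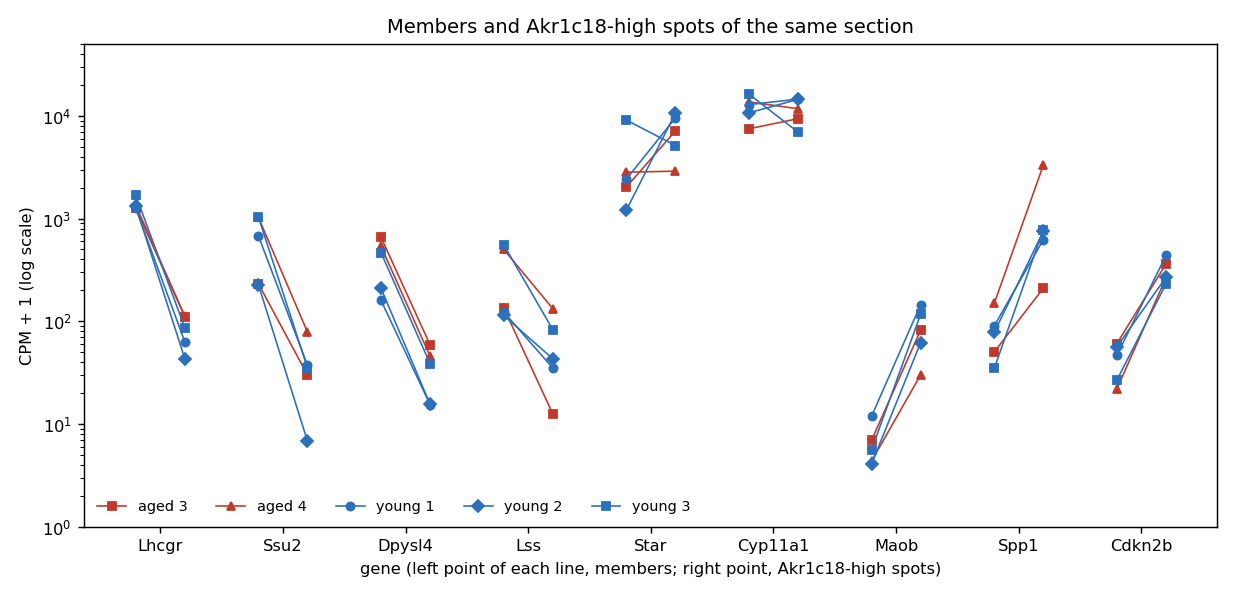
Level of 9 genes on a log axis of CPM + 1, each line joining the members (left point) and the Akr1c18-high spots (right point) of 1 section, red for aged and blue for young. Lhcgr, Ssu2, Dpysl4 and Lss are higher in the members of all 5 sections, Maob, Spp1 and Cdkn2b lower in all 5, and Star and Cyp11a1 cross between sections.

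Progesterone synthesis genes did not run in 1 direction between the sets. Of 10 genes 1 was higher and 3 were lower in members, where 4.77% and 4.93% of all genes were. Cyp11a1 had a log2 fold change of -0.01 (adjusted p = 0.995) and Hsd3b1 of 0.31 (adjusted p = 0.601). Star had -1.36 ± 0.51 and did not pass (adjusted p = 0.115), though it did without young 3 (-1.90, adjusted p = 0.0199), where its direction was the opposite. The higher gene was Nr5a2 (1.45 ± 0.30, adjusted p = 0.00651), and the lower ones were Tspo (-1.49 ± 0.19, adjusted p = 0.000203), Por (-0.89 ± 0.18, adjusted p = 0.00506) and Nr5a1 (-0.76 ± 0.21, adjusted p = 0.0345), the last lost without aged 3, young 1, young 2 or young 3 (0.059 to 0.156). With the score without Hsd17b7, Nr5a2 (0.0783) and Por (0.164) lost theirs too, and Por also with limits within areas (0.118). For Nr5a1 the adjusted p reached 0.537 over the 11 alternatives. Of 10 corpus luteum markers Lhcgr alone was called, Prlr (0.56, adjusted p = 0.22) and Ptgfr (-0.43, adjusted p = 0.518) not passing.

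Cholesterol synthesis genes differed between the sets as chosen. Of 19 genes 15 were higher in members and 0 lower, at a median log2 fold change of 1.15, and all genes had a median of 0.02. Spots high in both Akr1c18 and the rule genes, Hsd17b7 of this pathway among them, were left out of both sets. Patch 1 of aged 4, with all 50 spots left out, had 11417.5 CPM of the summed list. The Akr1c18-high spots kept had 2383 to 6161 CPM over the 5 sections. How far this choice sets the difference was not tested. Lss was higher by 2.01 ± 0.24 (adjusted p = 0.000109) and Hmgcs1 by 1.59 ± 0.30 (adjusted p = 0.004). Fdps (0.56, adjusted p = 0.274), Msmo1 (0.58, adjusted p = 0.129) and Dhcr7 (0.54, adjusted p = 0.462) did not pass. Over the alternatives 6 to 15 of the 19 were called higher, and Hmgcs1 lost its call with limits within areas (0.0648).

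The 3 sterol regulators called, of 6 tested, were again Srebf2 (0.85 ± 0.20), Scap (0.92 ± 0.23) and Insig1 (1.15 ± 0.32, adjusted p = 0.0352), all higher. Each lost its call without at least 1 section: Srebf2 without young 3 (0.0599), Scap without aged 4, young 1 or young 3 (0.0741 to 0.0897) and Insig1 without aged 3, aged 4, young 1 or young 3 (0.0751 to 0.134). Of 13 uptake and storage genes 3 were higher, Lrp8, Npc2 (1.17 ± 0.25, adjusted p = 0.00902, lost without the block, with limits within areas or with the score without Hsd17b7, 0.0936 to 0.316) and Soat1 (1.16 ± 0.33, lost without aged 4, young 1 or young 3, 0.114 to 0.155), and Plin2 was lower (-0.90 ± 0.21, lost without young 1 or young 2, 0.0911 and 0.0627). Stat5b was higher by 0.82 ± 0.20 (adjusted p = 0.0173, lost without aged 3 or aged 4, 0.063 and 0.0645). Choices other than the sections left in weakened these calls further. Over all 11 alternatives adjusted p reached 0.343 for Srebf2, 0.13 for Scap, 0.265 for Soat1, 0.725 for Plin2 and 0.121 for Stat5b.

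Macrophage markers were lower in members. Of 8 tested 5 were lower, C1qa (-1.22 ± 0.21), C1qb (-1.23 ± 0.25), C1qc (-1.33 ± 0.22), Lyz2 (-1.54 ± 0.20) and Fcgr3 (-1.52 ± 0.35, lost without young 1 or young 2, 0.0573 and 0.0865), and their list summed to 286 to 509 CPM in members and 533 to 1316 CPM in Akr1c18-high spots. Of 9 lipid-laden macrophage markers 4 were lower, Spp1, Trem2 (-1.38 ± 0.28), Ctsb (-0.96 ± 0.19) and Lgals3 (-2.98 ± 0.24, adjusted p = 4.13e-06). With the score without Hsd17b7, the calls of C1qa (0.0927), C1qb (0.34), C1qc (0.131), Fcgr3 (0.404), Trem2 (0.215) and Ctsb (0.0941) were lost. With limits within areas those of C1qb (0.149), Fcgr3 (0.0884), Trem2 (0.28) and Ctsb (0.0943) were lost, and without the block that of Fcgr3 (0.0551). Lyz2, Spp1 and Lgals3 kept their calls in all 11 alternatives. The part of macrophages in the differences from Akr1c18-high spots was not tested.

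Of 8 granulosa markers 3 were higher in members, Foxl2 (1.28 ± 0.23, adjusted p = 0.00248), Gja1 (1.20 ± 0.27, adjusted p = 0.00975) and Fst, which encodes the activin-binding follistatin (1.57 ± 0.42, adjusted p = 0.0271). The Fst call was lost without aged 4, young 1 or young 3 (0.0612 to 0.164). Stromal markers had 2 of 9 lower, Lum (-1.77 ± 0.24) and Pdgfra (-1.32 ± 0.20). With limits within areas or with the score without Hsd17b7, calls were lost for Gja1 (0.189 and 0.111), Fst (0.136 and 0.24), Lum (0.137 and 0.0895) and Pdgfra (0.0542 and 0.283). Without the block Gja1 (0.0568) and Fst (0.169) lost theirs, and Foxl2 kept its call in all 11 alternatives. Cited4 was lower (-1.18 ± 0.22, adjusted p = 0.0032). Of 12 endothelial, 10 smooth muscle, 4 theca and 7 luteolysis genes edgeR and DESeq2 called 0. By edgeR 1, 5, 2 and 1 of them had an unadjusted p under 0.05.

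Single genes made up the calls of the remaining lists. Hsd17b12 (0.81 ± 0.20, lost without young 2 or young 3, 0.0697 and 0.083), Txnrd1 (1.21 ± 0.22), Ndufs1 (0.77 ± 0.20, lost without any section but young 1, 0.0616 to 0.112) and Cdkn1b (1.53 ± 0.34) were higher, and Nrp2 (-1.32 ± 0.34, lost without young 2 or young 3, 0.0759 and 0.136) and Col4a4 (-1.21 ± 0.35, lost without any section but aged 4, 0.0523 to 0.225) lower. Txnrd1 lost its call with limits within areas (0.0909) or with the score without Hsd17b7 (0.262), and Cdkn1b without the block (0.0619). Over all 11 alternatives adjusted p reached 0.723 for Hsd17b12, 0.267 for Ndufs1, 0.392 for Nrp2 and 0.584 for Col4a4. Of 53 calls of named genes in this comparison, 24 were lost with the score without Hsd17b7, 21 with limits within areas, 12 without the block and 2 with DESeq2.

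Members of aged animals were compared with members of young animals, 3 sections each, which asks what age changes within these spots. Of 10420 genes 1 was called (0.00960%), and 289 had an unadjusted p under 0.05. The called gene was Lgr6, a receptor for R-spondins (chr1:134983301-135105276, minus strand), at 97.8, 124 and 58.3 CPM in aged and 10.9, 11.1 and 9.71 CPM in young members. Aged and young members did not overlap (93.3 ± 33.0 and 10.6 ± 0.763 CPM, SD, n = 3 each; log2 2.99 ± 0.32, adjusted p = 0.0324).

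The Lgr6 call depended on what was left in. With limits within areas it was lost, without area 3 the log2 fold change was 2.77 (adjusted p = 0.665), without the Akr1c18-high members 2.68 (adjusted p = 0.999) and without aged 4 the call held (adjusted p = 0.0108). Within aged 4 Lgr6 had 115 CPM in patches 1 and 3 (95% exact Poisson interval 101 to 130.1 CPM) and 9.55 CPM in patches 2 and 4 (6.06 to 14.3 CPM, a range that holds the levels of all 3 young sections). The call was also lost without aged 1 (0.0768), aged 3 (0.231), young 1 (0.18), young 2 (0.106) or young 3 (0.651). With the capture area as a block, which pairs the sections of areas 1 and 3 and leaves 1 residual degree of freedom, 67 genes were called, 47 higher and 20 lower in aged members.

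The other genes of lowest p did not pass: the immediate early gene Egr2 (4.70, adjusted p = 0.863), and Tmem71 (2.20), Snap91 (2.70), the fibril gene Mfap5 (-2.56) and the matrix gene Tnc (1.87), these at 0.999. With 3 sections per age, genes that missed the threshold are not shown to be alike between the ages. Of the 19 cholesterol genes 0 were called by age by edgeR or by DESeq2, and 0 had an unadjusted p under 0.05, the median being -0.03 with 0.00 for all genes. Lhcgr had a log2 fold change of -0.59 and Star of -0.72 (both adjusted p = 0.999), and Star turned to 0.66 without area 3 and to 0.41 without young 3.

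Whether the age difference of members differed from that of other spots in the same sections was tested as an interaction. Of 12696 genes 1 was called (0.00788%), and 631 had an unadjusted p under 0.05. The gene was Nap1l5, an imprinted gene of the nucleosome assembly protein family (chr6:58905233-58907076, minus strand). It had 18.5, 23.9 and 42.6 CPM in aged and 69.2, 45.7 and 31.2 CPM in young members, which overlapped. Other spots had 303, 270 and 597 CPM in aged and 144, 72.8 and 73.5 CPM in young sections, which did not overlap. The difference of the age differences was -2.82 ± 0.28 on the log2 scale (adjusted p = 0.0035). It held without area 3 (-2.95, adjusted p = 0.0409) and in each other alternative (-2.64 to -2.95).

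Below it, the protease inhibitor gene Serpine2 (-1.84), Lgr6 (1.88), the mitotic gene Ube2c (-1.90) and Klra4 (3.71), all at an adjusted p of 0.225, and the growth factor binding protein gene Igfbp2 (-1.38, adjusted p = 0.257) did not pass. Klra4 belongs to a family of near-identical receptors, whose reads can be shared, which makes its own value uncertain.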

How the data were processed

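Raw counts of UMIs per gene and spot were used as the authors deposited them (32285 genes, 4191 spots, no normalization in the tables), with spot positions in other units. The tool and build were Space Ranger 1.2.1 and mm10, per the submitters' processing notes; its gene annotation and whether it counted by strand are not stated in what was used here. Per the labels' protocols, ovaries were frozen, cut at 10 µm, placed on 6.5 mm areas and permeabilised for 18 minutes. Of 4191 spots, 57 had under 1000 UMIs and were left out. Areas shared 1358 of 2204 spot barcodes, since slides reuse them, and no spot was joined by barcode across areas.

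Spots were assigned to sections by the labelled side, divided where pixel positions left their widest gap within the central 60%, small rows as top and small columns as left. Counts were summed per section and set, since the animal and not the spot is the replicate, in sections with at least 10 spots of a set. They were tested with edgeR 4.0.16 (limma 3.58.1, R 4.3.3; quasi-likelihood, TMM, filterByExpr), with the section as a block in contrasts within sections and age alone between ages. The 4 rule genes, and Akr1c18 where it chose spots, are given without a test. SE is that of the fit; CPM are of summed counts over all genes, without TMM factors. Sequences were matched with RefSeq tables and positions with GENCODE M21. Pools of spots with no replicate have exact Poisson intervals of 95%, which cover counting error only.

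The members, 29 lists (292 genes, 1 of them not matched) and tests were chosen with earlier results of these data known. Named genes were those of the progesterone, luteolysis, luteotropic and related-gene lists, up to 4 per other list by level in members, and the 12 highest and 8 lowest by log2 fold change among called genes of at least 20 CPM with 1 direction in each section, or the 6 of lowest p where few were called. Tests were run on simulated data with known changes and no differences between sections, unlike the real data. Of 100 genes changed by 1 on the log2 scale, 80 were recovered against other spots and 50 against Akr1c18-high spots. By age within members and in the interaction 8 were recovered in each. At a log2 change of 2, these recovered 49 and 67 of 100, so that both tests by age miss many changes. Sections of an area are paired, as the labels put both on 1 library; after removing age means, members of areas 1 and 3 correlated at -0.00066 and -0.026 over 10420 genes. Alternatives were DESeq2 1.42.0, RLE scaling, no filter, other scores and limits, no block, and each section left out. Single values of some listed genes are not reported here.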

Additional observations from a re-analysis of the deposited data

Results flagged for a closer look

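Of 106 groups of sections checked for a section far from the rest, 5 had one, where chance gives about 1 in 20, in the log2 ratio of CPM, members over other spots. Scarb1 had -0.14 in young 2, Sfrp4 -1.17 in young 3, Stat5b 1.72 in aged 3, Sdha 0.85 in young 3 and Pecam1 1.35 in aged 3. These are values of single sections and were not tested further.

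The age difference of Nap1l5 differed between members and other spots by -2.82 on the log2 scale, by the test of the interaction. Outside the measured set, 7 of the 57 spots with under 1000 UMIs had a score at or above the limit.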

How the results depend on the processing

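The share of members by age kept its direction in all 19 alternatives and passed in none, the replicate block included (exact p = 0.25). Those that left out a section or an area, and the replicate block, had too few sections to pass at 0.05 whatever the values. Members against other spots gave 2835 called genes, 1533 with no replicate block, 1622 with a score without Hsd17b7 and 1747 to 3167 without a section in turn, the lowest without aged 4. Without the filter on low counts 37.9% of called genes were higher, against 50.6%. Against Akr1c18-high spots, 785 became 1344 without the filter, 517 with limits within areas, 492 with no replicate block, 406 with the score without Hsd17b7 and 523 to 776 without a section in turn, the lowest without young 3. The causes were not tested. By age in members, 1 call became 8 with DESeq2, 54 without the filter, 67 with the replicate block, and 0 with limits within areas, without area 3, without Akr1c18-high members, and 0 to 1 without a section in turn. The interaction's 1 call became 10 with DESeq2, 109 without the filter, 4 with limits within areas and 1 to 3 without a section in turn. Leaving out a section gave depth differences of 9285 to 11778 UMIs and 1183 to 1401 genes, with 5 sections too few to pass, and mitochondrial differences of -0.335 to 0.514 points, the highest without aged 3. Among genes that did not pass, signs turned for Stard3 (-0.028 without the filter, -0.071 within areas, -0.060 to 0.057 without a section in turn), Cited2 (-0.091 within areas, -0.19 without Hsd17b7 in the score, -0.024 without Akr1c18-high members, -0.028 to 0.27 without a section), Cyp11a1 against Akr1c18-high spots (0.018 without the filter, -0.30 to 0.13 without a section) and Star by age (0.66 without area 3, -1.14 to 0.41 without a section), and for the called Cdkn1a (-0.23 without Hsd17b7 in the score).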
